A study of Caenorhabditis elegans with 7 samples.

Results

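The body wall muscle sarcomere genes of the nematode Caenorhabditis elegans were followed as a list of 39 genes, all of which were matched by symbol in a table of 46748 counted genes. RNA was sequenced from early, pre-gastrulation embryos of 2 genotypes, with 4 libraries from flp-21(ok889) mutants, numbered 11, 22, 29 and 30, and 3 from wildtype (N2, the laboratory strain), numbered 11, 22 and 30. A neuropeptide of the FMRFamide-like family is encoded by flp-21, and the title of the series concerns how neurons govern what mothers supply to their eggs. No treatment is named. Separate cultures are not stated for the libraries either, and the spread behind each p-value may therefore be technical. Embryos were taken at the stage at which 1 to 2 eggs were present in the mothers, per the labels' protocols.

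The sarcomere is the repeating contractile unit of striated muscle, in which thick filaments of myosin pull on thin filaments of actin. In the worm, the thin filaments are anchored at dense bodies and the thick filaments at M-lines, and both are tied through integrin to a basement membrane, so that force reaches the cuticle. Calcium released inside the muscle cell acts on troponin, which lies with tropomyosin on the thin filament. Muscle is not yet differentiated in embryos before gastrulation, whereas several of the attachment proteins are also used by other cells.

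Total counts ran from 34164612 to 53620276 in the mutant libraries and from 34262203 to 42988763 in the wildtype libraries. Ribosomal RNA took 2.40% to 3.72% of the counts in the mutant and 3.99% to 13.3% in wildtype, the highest share being in wildtype library 30. The counts of flp-21 itself (WBGene00001464, chromosome V from 7793365 to 7794021, build WBcel235) were 2, 1, 5 and 9 in the mutant, against 24, 2 and 6 in wildtype, too few to check the labels. Below, values given per library follow the library order 11, 22, 29 and 30 for the mutant and 11, 22 and 30 for wildtype. The 15 genes of the germ line and oocyte list held a summed 9116 to 11995 CPM in the mutant and 7283 to 11965 CPM in wildtype. Here CPM is the read count scaled to library depth, after TMM correction for differences in library composition. These sums hide changes of single genes in the edgeR test described below. Of the 15 genes, 2 fell, cbd-1 and glh-1, with log2 fold changes, mutant over wildtype, of -4.39 and -1.80. A further 2 rose, glp-1 and skn-1, by 1.64 and 1.10. The share was 13.3% in each direction, against 29.4% lower and 9.01% higher of all tested genes. Mutant libraries 22 and 29 were the closest pair in the series, with a chi-square per degree of freedom, over genes, of 23.2, the next lowest being 140.5, so no pair of libraries came within sampling noise.

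The contractile filament genes were far lower in the mutant embryos, while most genes of the integrin attachment complex and the actin and myosin helper proteins did not pass the test. Of the 39 genes 37 passed the count filter, and 23 of these fell, 1 rose and 13 did not pass (edgeR quasi-likelihood test, Benjamini-Hochberg adjusted p under 0.05 over all 13035 genes tested). Over all tested genes 29.4% fell and 9.01% rose. The median log2 fold change, mutant over wildtype, was -4.17 for the 37 sarcomere genes and -0.21 for all tested genes. The filter could be met by the wildtype libraries alone, so that a gene low in the mutant could enter the test through wildtype. The genes that fell did so by 5.66-fold to 59.3-fold, and 21 of the 23 by more than 8-fold.

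**Figure D1:**
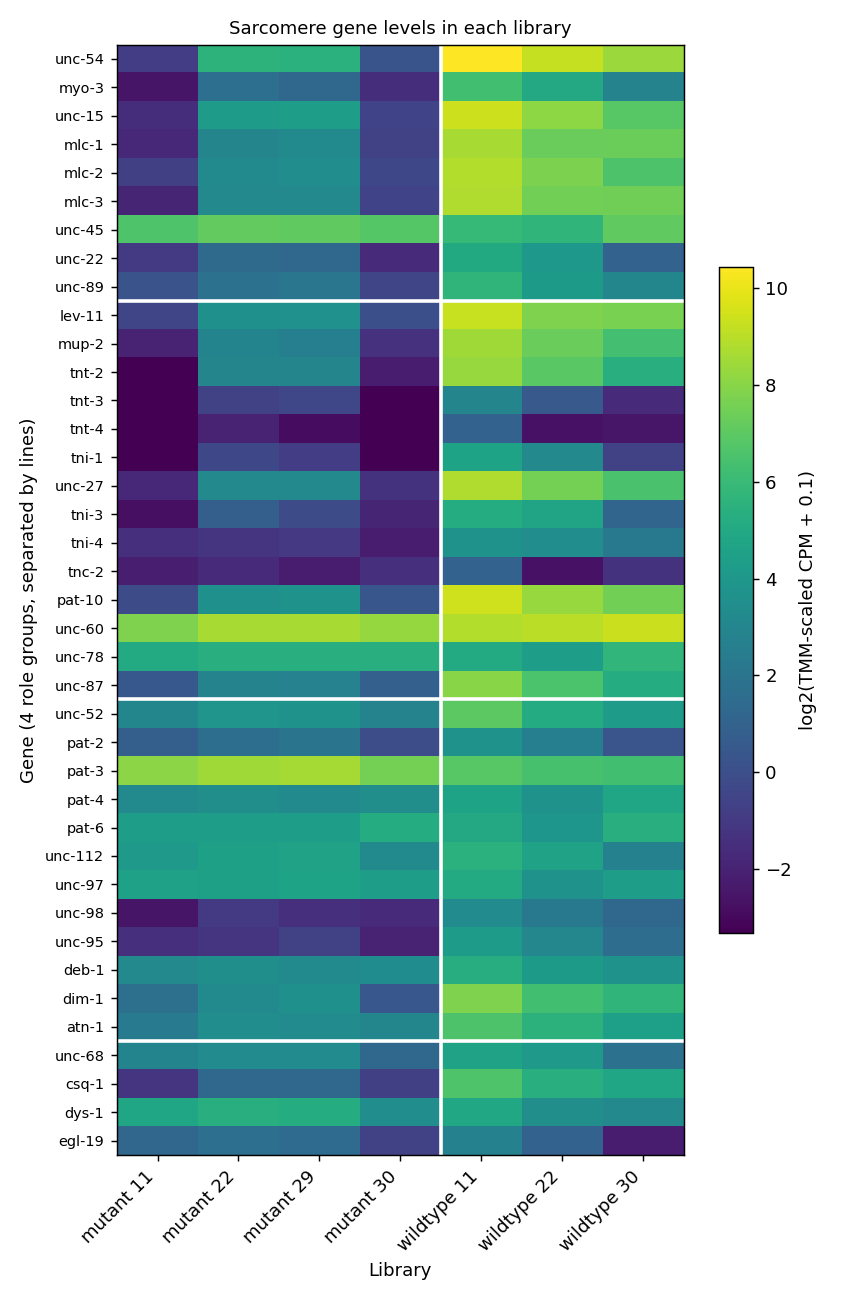
Level of each of the 39 sarcomere genes (rows, in 4 role groups) in each library (columns, mutant left of wildtype), as log2 of TMM-scaled CPM plus 0.1. Most filament genes are dark in mutant libraries 11 and 30, intermediate in mutant libraries 22 and 29 and bright in wildtype, while rows such as unc-60, pat-3 and unc-45 are bright throughout.

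Among the 9 thick filament genes 8 fell (88.9%, against 29.4% of all tested genes) and 1, the chaperone gene unc-45, did not pass. The gene with the highest level per exon length over all libraries, and in wildtype, was mlc-2 (WBGene00003370, chromosome X from 17455779 to 17456586), which encodes a regulatory light chain of myosin. In the mutant unc-45 was higher, at 55.2 TPM against 13.4 TPM of mlc-2, where TPM is the level corrected for exon length. The light chain gene mlc-2 had 0.511, 9.05, 10.9 and 0.705 CPM in mutant embryos, against 461, 216 and 95.97 CPM in wildtype embryos. The log2 fold change of mlc-2 was -5.61 (SE 1.12, edgeR adjusted p = 0.00371). Every wildtype library lay above every mutant library, and mutant libraries 22 and 29 lay far above mutant libraries 11 and 30. The neighbouring gene mlc-1 encodes a near-identical regulatory light chain, so that reads of the pair may not have been assigned with certainty. Its levels were 0.195, 7.68, 9.18 and 0.534 CPM in mutant embryos, against 407, 157 and 162.6 CPM in wildtype embryos. The groups did not overlap for mlc-1 either, and its log2 fold change was -5.78 (SE 1.19, edgeR adjusted p = 0.00426).

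The major myosin heavy chain of body wall muscle is encoded by unc-54 (WBGene00006789, chromosome I from 14855899 to 14863540). It had 0.463, 48.6, 44.4 and 1.11 CPM in mutant embryos, against 1395, 601 and 327 CPM in wildtype embryos. Its log2 fold change was -5.03 (SE 1.43, edgeR adjusted p = 0.0209). The highest mutant library of unc-54 stood 105-fold above the lowest, a wider range than the 4.27-fold between its wildtype libraries. The essential myosin light chain gene mlc-3 had 0.170, 8.73, 8.73 and 0.572 CPM in mutant embryos, against 450.4, 182 and 177 CPM in wildtype embryos. It had the lowest log2 fold change of all members, -5.89 (SE 1.21, edgeR adjusted p = 0.0042).

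The other thick filament genes that fell had log2 fold changes of -5.16 for unc-15, which encodes the filament core protein paramyosin, -4.75 for myo-3, the minor myosin heavy chain at the filament centre, -3.59 for unc-22, which encodes the giant kinase twitchin, and -3.49 for unc-89, which encodes an obscurin-like M-line protein. Their means ran from 1.41 to 9.94 CPM in the mutant and from 16.9 to 356 CPM in wildtype. For unc-22 the groups overlapped, since wildtype library 30 at 1.89 CPM lay below mutant libraries 22 and 29 at 2.57 and 2.42 CPM. The myosin chaperone gene unc-45, whose product also serves non-muscle myosin, behaved differently from the filament genes it stands with. It had 101, 139.95, 136 and 111.6 CPM in mutant embryos, against 59.9, 50.7 and 135 CPM in wildtype embryos. Its log2 fold change of 0.58 did not pass (SE 0.40, edgeR adjusted p = 0.284). Without wildtype library 30 it was 1.26 and passed (edgeR adjusted p = 0.00518).

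Of the 14 thin filament genes 12 were tested, and 9 of these fell (75%, against 29.4% of all tested genes) while 3 did not pass. Troponin C of body wall muscle, the calcium sensor of the thin filament, is encoded by pat-10 (WBGene00003934, chromosome I from 5018770 to 5020166). It had 0.828, 12.03, 13.2 and 1.20 CPM in mutant embryos, against 695, 318 and 185 CPM in wildtype embryos. The groups of pat-10 stood well apart, with a log2 fold change of -5.87 (SE 1.04, edgeR adjusted p = 0.00204). Tropomyosin, which lies along the actin filament, is encoded by lev-11. Its levels were 0.633, 11.9, 12.6 and 0.934 CPM in mutant embryos, against 618, 224 and 208 CPM in wildtype embryos, a log2 fold change of -5.74. The calponin-like actin-bundling gene unc-87 had 1.27, 7.0003, 6.88 and 1.79 CPM in mutant embryos, against 251, 92.9 and 37.2 CPM in wildtype embryos (log2 fold change -4.91). In both genes the same order of libraries appeared, mutant libraries 22 and 29 above 11 and 30 and wildtype library 11 above 22 and 30.

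Troponin I, the inhibitory subunit, has 4 genes in the list, and all 4 fell. The most abundant, unc-27, had 0.195, 8.87, 8.997 and 0.305 CPM in mutant embryos, against 447, 186 and 90.5 CPM in wildtype embryos (log2 change -5.72, SE 1.33 and edgeR adjusted p = 0.00828). The scarcer genes tni-1 and tni-3 had log2 fold changes of -5.30 and -5.001. Their wildtype libraries were further apart than those of unc-27, at 25.2, 8.83 and 0.566 CPM for tni-1 and 37.2, 26.2 and 2.19 CPM for tni-3 in libraries 11, 22 and 30, against mutant means of 0.293 ± 0.352 and 0.684 ± 0.757 CPM (SD, n = 4). The pharyngeal isoform tni-4 showed less spread in the mutant than the body wall isoforms did, at 0.268, 0.324, 0.379 and 0.114 CPM in mutant embryos. Its wildtype levels were 13.3, 10.6 and 4.68 CPM in libraries 11, 22 and 30, giving a log2 fold change of -5.12 and the smallest p-value of the list (edgeR adjusted p = 0.000531).

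Troponin T, the subunit that binds tropomyosin, likewise has 4 genes. The body wall gene mup-2 had 0.146, 7.27, 6.12 and 0.286 CPM in mutant embryos, against 364, 158 and 79.3 CPM in wildtype embryos, and fell by 5.86 on the log2 scale. For tnt-2 the counts were 0, 276, 427 and 6 in mutant embryos, against 14528, 4209 and 1071 in wildtype embryos, the 0 being compatible with at most 3 counts. The log2 fold change of tnt-2 was -5.41 (SE 1.61), the largest standard error among the members that fell, and its edgeR adjusted p of 0.0253 was the nearest of these to the threshold. The counts of tnt-3 were 0, 20, 37 and 0 in mutant embryos, against 346, 45 and 6 in wildtype embryos. The groups overlapped, and the log2 fold change of -3.34 did not pass (edgeR adjusted p = 0.107). The pharyngeal genes tnt-4 and tnc-2, which encode troponin T and troponin C, stayed under the count filter. Wildtype library 11 held 86 counts of tnt-4 and 85 of tnc-2, while each of the other 6 libraries held 0 to 6 counts of tnt-4 and 2 to 14 of tnc-2.

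The remaining thin filament genes act on actin turnover and were abundant in every library. The ADF/cofilin gene unc-60 (WBGene00006794, chromosome V from 1475072 to 1479582) encodes a muscle isoform and a non-muscle isoform, which counts per gene do not separate. It had 221, 394, 406 and 305 CPM in mutant embryos, against 466, 522 and 647 CPM in wildtype embryos. Although the groups did not overlap, the log2 fold change of -0.72 did not pass (SE 0.33, edgeR adjusted p = 0.119). With only genes of at least 5 CPM tested it was -0.95 and passed (edgeR adjusted p = 0.0228). The actin-interacting protein gene unc-78, a cofactor of cofilin, had 33.8, 41.5, 39.9 and 40.2 CPM in mutant embryos, against 34.4, 20.6 and 54.3 CPM in wildtype embryos. The mutant libraries of unc-78 lay within the wildtype range, and its log2 fold change of 0.09 did not pass (edgeR adjusted p = 0.872).

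**Figure D2:**
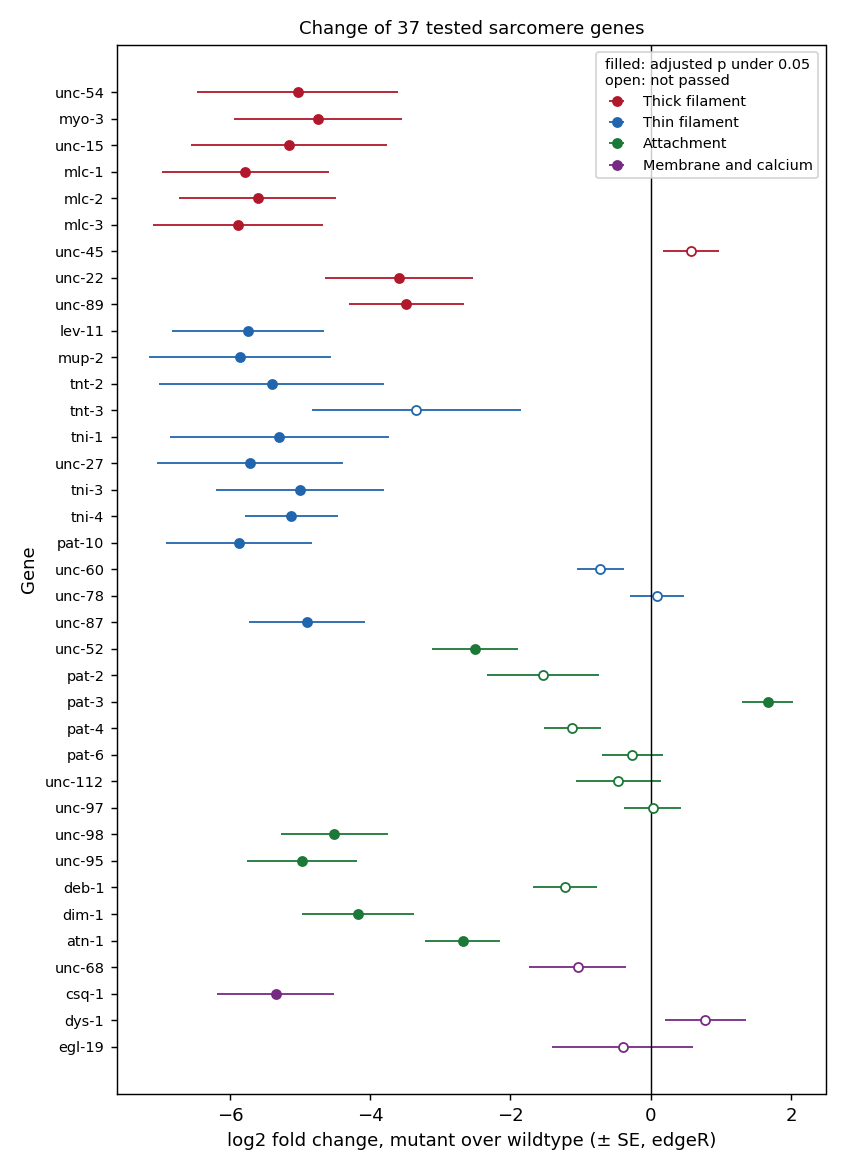
Log2 fold change, mutant over wildtype, with its standard error for the 37 tested sarcomere genes, coloured by role, filled where the edgeR adjusted p was under 0.05. Thick and thin filament genes cluster between -3.49 and -5.89 apart from unc-45, unc-60, unc-78 and the uncalled tnt-3 at -3.34, and attachment genes spread from -4.97 to 1.67.

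The 12 genes of the attachment structures were split, with 5 lower, 1 higher and 6 not passing. The shares were 41.7% lower and 8.33% higher, against 29.4% and 9.01% of all tested genes. The gene that rose was pat-3 (WBGene00003930, chromosome III from 3908915 to 3914138), which encodes the beta integrin that worm tissues share. It had 266, 359.7, 383 and 189 CPM in mutant embryos, against 118.6, 85.4 and 78.8 CPM in wildtype embryos. Its log2 fold change was 1.67 (SE 0.37, edgeR adjusted p = 0.00584), and every mutant library lay above every wildtype library. For pat-2, an alpha integrin gene whose product pairs with PAT-3 in muscle, the levels were 1.73, 3.000, 3.90 and 0.858 CPM in mutant embryos, against 13.4, 6.04 and 1.13 CPM in wildtype embryos. The groups overlapped, and the log2 fold change of pat-2, -1.54, did not pass (edgeR adjusted p = 0.163). When wildtype library 30 was left out it was -1.92 and passed (edgeR adjusted p = 0.0371). Per exon length, pat-3 held 166 ± 69.5 TPM and pat-2 0.971 ± 0.624 TPM in the mutant (SD, n = 4), and 37.4 ± 14.5 and 2.12 ± 2.03 TPM in wildtype (SD, n = 3).

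The 4 cytoplasmic partners of integrin did not pass on all libraries, either in edgeR with TMM scaling or in DESeq2. Of the 4, 0 were called by either tool, pat-4 having an adjusted p of 0.0723 with DESeq2. The kinase-like gene pat-4, which encodes integrin-linked kinase, had 9.16, 11.2, 9.45 and 11.1 CPM in mutant embryos, against 25.1, 13.2 and 28.3 CPM in wildtype embryos. Its groups did not overlap, and its log2 fold change of -1.12 missed the threshold narrowly (edgeR adjusted p = 0.0533), and it passed under upper quartile scaling, under the 5 CPM filter and when wildtype library 22 was left out. The parvin gene pat-6 had 20.5, 20.1, 20.6 and 36.2 CPM in mutant embryos, against 31.5, 15.0 and 41.03 CPM in wildtype embryos. Here mutant library 30 stood apart from the other mutant libraries, inside the wildtype range. The PINCH gene unc-97 had 23.6, 22.2, 25.3 and 20.4 CPM in mutant embryos, against 33.5, 13.3 and 20.5 CPM in wildtype embryos. The kindlin gene unc-112 had 17.4, 22.3, 24.4 and 9.38 CPM in mutant embryos, against 44.5, 24.7 and 6.52 CPM in wildtype embryos. Log2 fold changes of pat-6, unc-97 and unc-112 were -0.26, 0.03 and -0.46 with SEs of 0.44, 0.40 and 0.60, each SE being larger than its change. Of these 3, unc-97 was above 0 with TMM scaling and at -0.19 with upper quartile scaling.

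Among the structural genes of the dense body, M-line and basement membrane 5 fell and the vinculin gene deb-1 did not pass. The immunoglobulin-repeat gene dim-1 had 3.29, 9.41, 11.8 and 1.22 CPM in mutant embryos, against 219, 78.2 and 50.6 CPM in wildtype embryos (log2 change -4.17, SE 0.80 and edgeR adjusted p = 0.00303). The LIM domain gene unc-95 and the zinc finger gene unc-98, whose products lie at these structures, fell by 4.97 and 4.51 on the log2 scale. The alpha-actinin gene atn-1, an actin crosslinker of dense bodies, and the perlecan gene unc-52, a proteoglycan of the muscle basement membrane, fell by less, with log2 fold changes of -2.68 and -2.50. Their mutant means were 8.43 ± 2.56 and 10.5 ± 3.71 CPM (SD, n = 4), and their wildtype means were 54.02 ± 37.8 and 59.5 ± 56.1 CPM (SD, n = 3). The vinculin gene deb-1 had 8.67, 11.4, 9.27 and 10.2 CPM in mutant embryos, against 37.96, 18.3 and 12.7 CPM in wildtype embryos. Its groups did not overlap, but the log2 fold change of -1.22 did not pass (SE 0.46, edgeR adjusted p = 0.0591). It passed under upper quartile scaling at -1.43, under the 5 CPM filter at -1.52 and when wildtype library 30 was left out at -1.38.

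Of the 4 genes of membrane and calcium handling 1 fell (25%, against 29.4% of all tested genes) and 3 did not pass. Calsequestrin, the calcium store protein of the sarcoplasmic reticulum, is encoded by csq-1, which had 0.317, 2.30, 2.42 and 0.515 CPM in mutant embryos, against 102, 41.1 and 27.1 CPM in wildtype embryos. Its groups were apart by more than 10-fold, with a log2 fold change of -5.35 (SE 0.84, edgeR adjusted p = 0.00116). The ryanodine receptor gene unc-68, the calcium release channel, had 7.38, 9.78, 9.97 and 2.38 CPM in mutant embryos, against 24.5, 17.6 and 3.43 CPM in wildtype embryos (log2 fold change -1.04, edgeR adjusted p = 0.272). The voltage-gated calcium channel gene egl-19 had 91, 116, 152 and 29 counts in mutant embryos, against 290, 66 and 3 counts in wildtype embryos. The log2 fold change of egl-19 was -0.40 and did not pass (edgeR adjusted p = 0.795), its wildtype libraries being 57.0-fold apart. The dystrophin gene dys-1 had 26.9, 39.4, 37.1 and 10.8 CPM in mutant embryos, against 30.04, 10.97 and 8.86 CPM in wildtype embryos. Mutant and wildtype overlapped for dys-1, whose log2 fold change of 0.78 did not pass (edgeR adjusted p = 0.327).

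The order of the genes by level per exon length therefore differed between the genotypes. In the mutant the 6 most abundant were unc-60 at 266 ± 96.6 TPM, pat-3 at 166 ± 69.5, unc-45 at 55.2 ± 15.6, pat-6 at 28.2 ± 2.36, unc-78 at 28.1 ± 5.46 and unc-97 at 23.1 ± 5.85 TPM (SD, n = 4). In wildtype they were pat-10 at 616 ± 479 TPM, mlc-2 at 472 ± 387, unc-27 at 309 ± 267, unc-60 at 306 ± 21.4, mlc-1 at 235.4 ± 170.5 and lev-11 at 163.2 ± 129 TPM (SD, n = 3). The intervals of mean ± SD overlapped between neighbours in each of these orders, except between pat-3 and unc-45 and between unc-45 and pat-6 in the mutant. Across the 39 genes, Spearman's rho of the TPM order was 0.989 between mutant libraries 22 and 29 and 0.914 between mutant libraries 11 and 30. It was 0.979 between wildtype libraries 11 and 22 and 0.144 between mutant library 11 and wildtype library 11. These are descriptions across genes, which are not independent, and 18 of the 39 had fewer than 20 counts in mutant library 11.

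**Figure D3:**
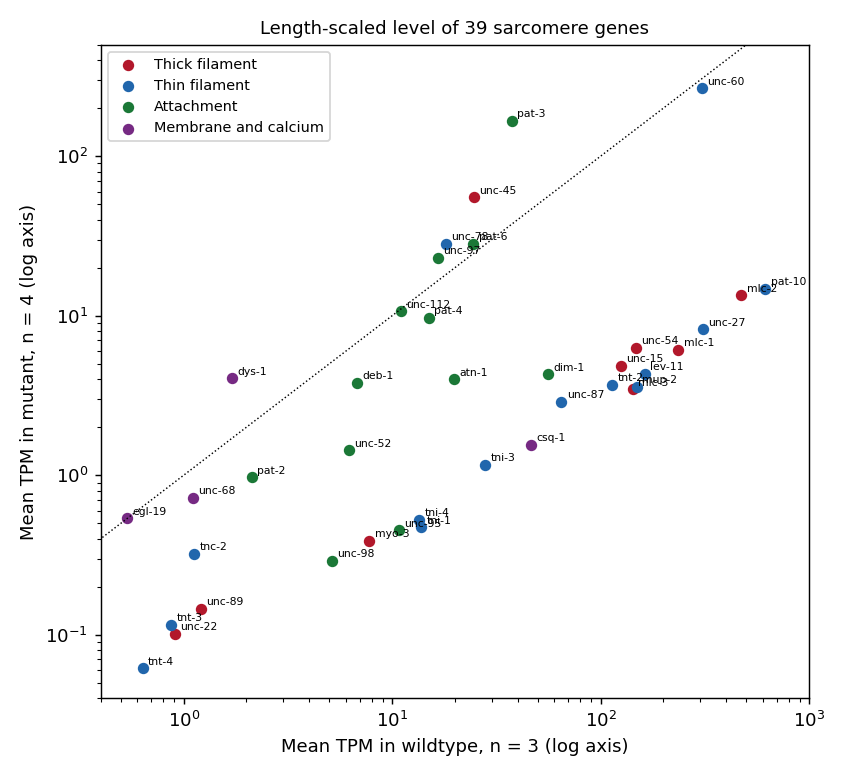
Mean level per exon length (TPM, log axes) of the 39 genes in wildtype (horizontal, n = 3) and mutant (vertical, n = 4), coloured by role, with a dotted line of equal level. Filament genes such as pat-10 (14.7 TPM in the mutant, 616 TPM in wildtype) lie far below the line, while unc-60, unc-78, unc-97, pat-6 and unc-112 lie near it and pat-3, unc-45 and dys-1 above it.

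Within each genotype the libraries differed along the same genes. Mutant libraries 22 and 29 both exceeded mutant libraries 11 and 30 for 32 of the 37 tested genes, including all 23 that fell, against 39.1% of all tested genes. In the 21 genes that fell and had no mutant library at 0, the highest mutant library was 2.04-fold to 105-fold above the lowest, with a median of 16.0-fold. Among the 14 tested genes that did not fall, 13 had no library at 0, and that range was 1.22-fold to 5.67-fold. In wildtype, library 11 exceeded 22 and 22 exceeded 30 for 30 of the 37 genes, against 20.6% of all tested genes. Both orders held together for 29 of the 37, against 11.9% of all tested genes.

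Expressed against the wildtype mean, the 9 thick filament genes had a median of 0.189%, 6.27%, 5.73% and 0.274% in mutant embryos. The 14 thin filament genes had medians of 0.194%, 5.80%, 4.41% and 0.284%, and the 12 attachment genes 31.4%, 46.6%, 41.5% and 25.8%, in the same libraries. The attachment genes thus stayed closer to wildtype in every mutant library than the filament genes did, as medians with no test. Groups did not overlap, with the mutant lower, for 24 of the 37 genes, against 30.5% of all tested genes, and with the mutant higher for 1, pat-3, against 14.1%. In bulk embryos fewer cells of a type and less RNA per cell cannot be told apart.

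Levels of the other filament genes were also set against unc-54 within each library. The following values are TPM per 100 TPM of unc-54. The minor heavy chain gene myo-3 stood at 6.57 and 5.34 in mutant libraries 22 and 29, against 5.71, 5.34 and 2.22 in wildtype embryos. The paramyosin gene unc-15 stood at 70.0 and 83.7 in mutant libraries 22 and 29, with 88.8, 83.5 and 65.5 in wildtype embryos. For unc-15 both mutant libraries lay within the range of the wildtype libraries, and for both genes wildtype library 30 was the lowest. The light chain gene mlc-3 stood at 51.4 and 56.2 in mutant libraries 22 and 29, against 92.3, 86.5 and 155 in wildtype embryos. The troponin C gene pat-10 stood at 202 and 243 in mutant libraries 22 and 29, against 406, 431 and 462 in wildtype embryos. For the light chain genes mlc-1, mlc-2 and mlc-3 and for pat-10, unc-27, mup-2 and lev-11, both mutant libraries lay below all 3 wildtype libraries on this scale. This describes mutant libraries 22 and 29, the closest pair in the series, and not the genotype. Among troponin I genes, tni-1 stood at 8.69 and 6.35 in mutant libraries 22 and 29, against 10.8, 8.82 and 1.04 in wildtype embryos. The gene unc-45 stood at 528 and 563 in mutant libraries 22 and 29, with 7.87, 15.5 and 75.6 in wildtype embryos, so that both mutant libraries lay above all 3 wildtype libraries. Mutant libraries 11 and 30 held 19 and 58 counts of unc-54, too few for such ratios. Taken as they stand, their ratios did not repeat the pattern of libraries 22 and 29. In both, mlc-2, lev-11 and pat-10 (1460 and 886) lay above all 3 wildtype libraries. The genes mlc-1 and mlc-3 lay within the wildtype range.

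**Figure D4:**
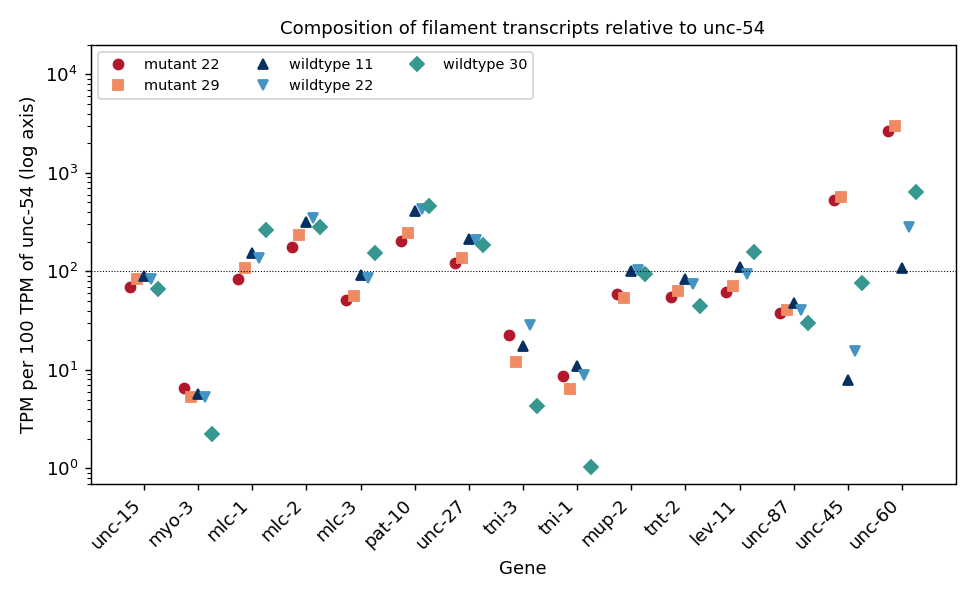
TPM per 100 TPM of unc-54 (log axis) for 13 filament genes and for unc-45 and unc-60, in the 2 mutant libraries with enough counts and the 3 wildtype libraries. For unc-15 mutant libraries 22 and 29 lie within the wildtype range, for light chain genes and pat-10 they lie below it (202 and 243 for pat-10, against 406, 431 and 462 in wildtype), while unc-45 and unc-60 lie far higher in the mutant libraries (528 against 7.87 for unc-45 in mutant library 22 and wildtype library 11).

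The authors' deposited table of their own DESeq2 comparison, which lists genes past an adjusted p of 0.05 and an absolute log2 fold change of 1.5, holds 24 of the 39 genes. Of these in the authors' deposited table, 23 are lower and 1 is higher, while 6.58% of all genes counted are listed as lower and 1.53% as higher. These shares are over all 46748 genes, many with few or no counts. They are therefore not comparable with the shares of tested genes given above. The log2 fold changes in the authors' deposited table run from -5.86 for pat-10 and mlc-3 to -2.50 for unc-52, with pat-3 at 1.72.

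The number of genes that fell depended on wildtype library 11. Without it 15 of the 37 fell, against 23.3% of all genes then tested, and unc-54, myo-3, unc-15, unc-22, unc-89, tnt-2, tni-1 and unc-52 no longer passed. Their log2 fold changes were then -4.27 for unc-54, -3.73 for myo-3, -4.28 for unc-15, -2.65 for unc-22, -2.43 for unc-89, -4.41 for tnt-2, -4.01 for tni-1 and -1.30 for unc-52. Without wildtype library 30 instead, 25 of 38 fell and 2 rose, pat-3 and unc-45, against 33.8% and 17.7% of all genes then tested. With wildtype library 30 as the only wildtype library 4 fell, csq-1, tni-4, unc-95 and unc-98, against 13.9% of all genes then tested. That fit holds no spread between wildtype libraries and assumes the lone library to vary as the mutant libraries do. Without mutant libraries 22 and 29, 24 genes fell against 21.1% of all genes then tested, all 23 and tnt-3. In that fit 0 rose in edgeR (1 at an unadjusted p under 0.05), pat-3 having a log2 fold change of 1.32 and an adjusted p of 0.0725, against 2.42% of all genes then tested. DESeq2 on all libraries called the same 23 genes lower and pat-3 higher, against 27.2% lower and 10.5% higher of all genes it tested.

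Other muscle genes were counted from lists held beside the sarcomere genes. For comparison, 29.4% of all tested genes fell and 9.01% rose. Of 17 further structural genes 16 were tested, 8 fell (50%) and 2 rose (12.5%), with a median log2 fold change of -1.76. The calponin-family gene cpn-3 and the striated muscle gene clik-1 had log2 fold changes of -5.80 and -5.82, and the LIM domain genes zyx-1 and alp-1 of -3.45 and -2.21, while frg-1 and uig-1 rose by 1.41 and 1.93. For uig-1 the rise passed only just (edgeR adjusted p = 0.04996). Of 21 genes of excitation and calcium handling 17 were tested, and 6 fell (35.3%) and 11 did not pass in edgeR. DESeq2 called 10 lower, and the median was -0.57. The potassium channel genes twk-18 and slo-1 and the inositol trisphosphate receptor gene itr-1 were among those that fell, with log2 fold changes of -4.16, -2.63 and -2.66. Of the 8 pharyngeal muscle genes, tni-4, tnt-4 and tnc-2 are sarcomere genes described above, and of the 4 tested only tni-4 fell (25%). The pharyngeal myosin gene myo-2 had 4, 43, 43 and 8 counts in mutant embryos, against 371, 1 and 3 counts in wildtype embryos.

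Transcription factors of the embryonic muscle lineage leaned in both directions. By log2 fold change hlh-1, unc-120, ceh-51 and tbx-8 were lower in the mutant, and hnd-1, pal-1 and tbx-9 were higher. Of 8 such genes 7 were tested and 0 passed in edgeR in either direction, with a median log2 fold change of -0.28. Over all tested genes 29.4% fell and 9.01% rose. At an unadjusted p under 0.05, 2 were lower and 1 higher, and DESeq2 called 1 lower and 1 higher. The MyoD homologue gene hlh-1 had 16, 33, 39 and 48 counts in mutant embryos, against 206, 15 and 73 counts in wildtype embryos (log2 fold change -1.83, edgeR adjusted p = 0.083). The serum response factor gene unc-120 had 63, 66, 59 and 42 counts in mutant embryos, against 606, 68 and 46 counts in wildtype embryos (log2 fold change -2.15, edgeR adjusted p = 0.0532). In both genes wildtype library 11 was the highest and the other libraries overlapped. The Caudal homologue gene pal-1, a maternally supplied regulator of the lineage, averaged 203 ± 36.7 CPM in mutant embryos, against 107 ± 40.7 CPM in wildtype (SD, n = 4 and n = 3, edgeR adjusted p = 0.0606).

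Genes of the non-muscle actin and myosin system differed less than the filament genes. Of 22 genes, 1 fell (4.55%) and 2 rose (9.09%), against 29.4% and 9.01% of all tested genes. The median log2 fold change was 0.29. The filamin gene fln-1 fell by 2.62 on the log2 scale, and the plastin gene plst-1 and the septin gene unc-61 rose by 1.27 and 0.92. Of the 5 actin genes 2 fell, act-4 with a log2 fold change of -1.70 and the intestinal actin gene act-5 with -6.48, while act-1 at -0.64 did not pass (edgeR adjusted p = 0.216). Several actin genes are near-identical copies, so their reads may not have been assigned with certainty.

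Markers of adult intestine and yolk, of cuticle and of sperm were mostly lower in the mutant as well. All 16 genes of the adult intestine and yolk list fell (100%, against 29.4% of all tested genes). Their sums were 1.12, 1007, 927 and 9.66 CPM in mutant embryos, against 47178, 52204 and 5927 CPM in wildtype embryos. In mutant library 11 the yolk gene vit-1 and 4 others had 0 counts, and in mutant library 30 mtl-1 and the intestinal factor gene elt-2 did. Of 18 cuticle collagens 10 were tested and 6 fell (60%). The sums of the 18 were 35.2, 242, 215 and 31.6 CPM in mutant embryos, against 7288, 1629 and 1032 CPM in wildtype embryos. The adult collagen genes col-19, col-119 and col-140 had 0 counts in mutant library 11. The sums of both lists shared with the filament genes the higher level in mutant libraries 22 and 29. The collagen sum also shared the order of the wildtype libraries. Among the tested collagens only col-19, col-119 and col-140 followed that wildtype order. In col-12, col-13 and dpy-9 wildtype library 30 was the highest, and in sqt-3, dpy-2, dpy-3 and dpy-10 it lay above wildtype library 22. Of 17 sperm genes 16 were tested and 15 fell (93.8%). The sums of the 17 were 55.9, 58.9, 54.8 and 156 CPM in mutant embryos, against 2420.4, 3903 and 4348 CPM in wildtype embryos. The gene spe-38 had 0 counts in mutant libraries 11 and 22. The sperm sums thus had their highest mutant level in library 30 and their lowest wildtype level in library 11, unlike the filament sums. Single sperm genes differed. The msp genes were lowest in wildtype library 11, but gsp-3, gsp-4, spe-9 and spe-11 were among those lowest in wildtype library 30. In the mutant, msp-38, spe-9 and fer-1 were highest in library 22. The part of these tissues in the levels of the sarcomere genes was not tested.

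**Figure D5:**
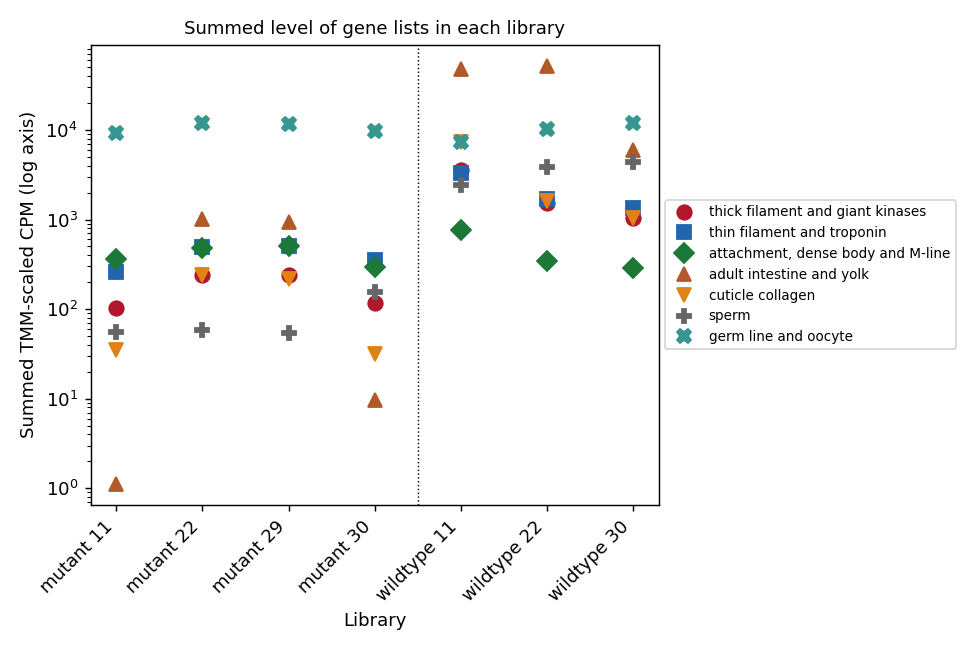
Summed TMM-scaled CPM (log axis) of 3 role groups of sarcomere genes and of 4 tissue lists in each library, mutant left of wildtype. Filament, collagen, and intestine and yolk sums are higher in mutant libraries 22 and 29 than in 11 and 30, and sperm sums are not. Germ line and oocyte sums lie between 7283 and 11995 CPM, although 2 of the 15 genes fell and 2 rose.

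The sarcomere genes were spread over the genome, with 8 on chromosome I, 2 on II, 5 on III, 5 on IV, 7 on V and 12 on X. Of the 12 on X, 9 fell (75%), and of the 8 on I, 7 (87.5%), against 62.2% of all tested members and 29.4% of all tested genes. Many filament genes lie on these chromosomes, among them mlc-2 and unc-27 on X and unc-54 and pat-10 on I. A part of the chromosome in the changes was not tested. On chromosome V, which carries flp-21, 6 of the 7 genes were tested and 3 fell, myo-3, tni-3 and atn-1, at 4.44, 9.04 and 4.69 Mb from flp-21. The nearest member, unc-68 at 0.88 Mb, did not pass. Exons of 10 of the 39 genes overlapped an exon of a gene on the other strand, among them mlc-2, unc-22, tni-4, unc-87 and unc-98, and since the counting command gives no strand option, reads of such pairs could not be told apart. The other 18 genes that fell had no such overlap.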

How the data were processed

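RNA of 7 early-embryo libraries was sequenced. The authors deposited raw counts of reads per gene, made per the file headers with featureCounts 1.6.4 from trimmed alignments and exons of a WBcel235 annotation; the command sets neither strand nor paired-end options. BWA, featureCounts and DESeq2 are named in the submitters' processing notes. BWA aligns without splicing, which can lower the counts of genes made of short exons. The authors also deposited a DESeq2 table with the mean signal as scaled counts, log2 fold changes, a Wald score and p-values. The header lists an alignment named as wildtype 29, which was not analysed here.

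Symbols came from a table of gene names and from Ensembl release 115. Counts were tested with edgeR 4.0.16 in R 4.3.3 (robust quasi-likelihood F-test, TMM, filterByExpr, genotype as the only term), with Benjamini-Hochberg adjustment over 13035 genes and a threshold of 0.05. Standard errors were derived from the F statistic. TPM used the exon lengths in the count table over all genes. The test was tested on simulated data. DESeq2 1.42.0, other scalings and filters, a block for the library number and left-out libraries were alternatives. Over all genes the median log2 fold change was -0.21 under TMM, -0.06 under DESeq2 size factors, -0.42 under upper quartile scaling and 0.01 when only library size was used; the text uses TMM. The lower direction made up 76.5% of calls under TMM, 84.5% under upper quartile scaling and 67.5% when only library size was used. Counting error alone is covered by a limit of 3 counts for a count of 0.

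Values in every library are given for the upper part of each role group by TPM, for genes called higher and for tested genes not called. Of each other list up to 3 genes with the smallest p and a mean of at least 1 CPM were selected for naming. This rule was not kept in every list. The genes mtl-2, ifb-2, cpr-1, msp-78, msp-56, ssp-9, fbl-1, cle-1, pha-4 and egl-21 were selected but are not described. Among the genes named outside the rule are vit-1, mtl-1, elt-2, spe-38, skn-1, crt-1, col-19, col-119, col-140 and the dpy collagens. The genes cpn-3, frg-1, uig-1, myo-2, unc-22, unc-95, unc-98, tni-1, tni-3 and tni-4 were given values after these were seen. The members, roles and lists were chosen with earlier results of these data known.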

Additional observations from a re-analysis of the deposited data

Results flagged for a closer look

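Mutant library 30 held 36.2 CPM of the parvin gene pat-6, apart from 20.5, 20.1 and 20.6 CPM in mutant libraries 11, 22 and 29, a gap of 0.968 of the range of the group. The mutant libraries of 39 genes and 2 sums were examined in this way, and chance flags about 1 in 20 such groups.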

How the results depend on the processing

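Of 660 comparisons of a tested member with its value under 18 alternatives, 586 kept direction and side of the threshold, 47 lost the call, 10 gained one and 17 changed sign. The sarcomere genes that fell numbered 15 to 25 with 1 library left out and those that rose 1 to 2. With the library number as a block (replicate block) 15 fell, against 23.1% of all genes tested, and 1 rose. The number is not known to pair the libraries, since the deviations of same-numbered libraries correlated at -0.197, 0.068 and 0.456 for numbers 11, 22 and 30, only number 30 correlating best with its own number, and a call lost with the block is not read as a weaker effect. With wildtype library 30 alone 4 fell, and without mutant libraries 22 and 29 none rose (0 in edgeR, 1 at an unadjusted p under 0.05). Signs changed, in genes called in neither fit: with upper quartile scaling unc-78 and unc-97 (-0.11 and -0.19), with the filter of 5 CPM the same genes (-0.11 and -0.23), without wildtype library 22 (-0.042 and -0.12), without mutant library 29 unc-97 (-0.03), without wildtype library 30 pat-6 (0.20), without wildtype library 11 unc-112 and egl-19 (0.31 and 1.12), with the block egl-19 (0.36), and with wildtype library 30 alone tnt-3 (0.58), unc-78 (-0.26), pat-2 (1.28), unc-112 (1.72), unc-68 (1.33) and egl-19 (4.45). With 1 library left out, unc-78 ran up to 0.63, pat-6 down to -0.52, unc-112 down to -0.79 and egl-19 down to -0.82. The cause was not tested. With no count filter 18 fell, against 20.6% of all genes tested; unc-54, unc-15, unc-27, tnt-2 and tni-1 no longer passed, with log2 fold changes of -5.06, -5.20, -5.74, -5.45 and -5.35. The call was kept in every alternative in which they were tested by 4 genes that fell, csq-1, tni-4, unc-95 and unc-98. Members with few counts in mutant libraries 11 and 30 limit the precision of fold changes.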

Other observations

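The genes of the basement membrane, which surrounds muscle and other tissues, were split. Of 11 tested, 7 fell (63.6%, against 29.4% of all tested genes) and 4 did not pass. The median log2 fold change was -4.41 against -0.21 over all tested genes. The type IV collagen genes emb-9 and let-2 had log2 fold changes of -5.34 and -5.48, the osteonectin gene ost-1 -5.93, and the nidogen gene nid-1 -4.11. The laminin genes did not pass, with log2 fold changes of 0.73 for lam-1, -0.06 for lam-2 and -1.48 for epi-1, and neither did ddr-2 at -1.92. All 11 basement membrane genes together held 134, 260.0, 269 and 47.7 CPM in mutant embryos (libraries 11, 22, 29, 30). In wildtype embryos these 11 held 1766, 903 and 321 CPM (libraries 11, 22, 30). Genes of the epidermal attachment structures that pass muscle force to the cuticle were split. Of 10 tested, 4 fell (40%, against 29.4% of all tested genes) and 6 did not pass (median -1.48). Among those that fell were let-805 at -3.71, mua-6 at -4.98 and the intermediate filament gene ifb-1 at -2.33. The 6 that did not pass include the calreticulin gene crt-1 at 0.02, which is not a gene of these attachment structures. The genes emb-9, let-2, ost-1, lam-1, lam-2, epi-1 and ddr-2 were chosen after their values were seen.

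Of 14 neuron markers 11 were tested, 3 fell (27.3%) and 1 rose (9.09%). These shares were near the 29.4% and 9.01% of all tested genes. The GABA synthesis gene unc-25 averaged 0.105 ± 0.0949 CPM in mutant embryos, against 5.03 ± 5.27 CPM in wildtype (SD, n = 4 and n = 3), and the dense core vesicle gene unc-31 rose to 7.40 ± 1.15 CPM in the mutant, against 2.44 ± 0.221 CPM in wildtype.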
